A study of Mus musculus with 61 samples.

Results

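Skeletal muscle has to bring glucose across its membrane and then trap it as glucose 6-phosphate, and 8 genes of these steps were followed across 8 inbred mouse strains. They were chosen by name, with earlier results of these data known: the glucose transporter genes Slc2a4 (GLUT4) and Slc2a1 (GLUT1), the Rab regulators Tbc1d1 and Tbc1d4 (AS160) with the small GTPase gene Rab10, the hexokinase genes Hk1 and Hk2, and Txnip. All 8 were present among the 19462 genes of the deposited table, and all 8 were among the 16682 genes that passed the filter on low counts.

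As background, GLUT4 is the insulin-responsive transporter of muscle and fat and is held in vesicles inside the resting fibre, whereas GLUT1 sits mostly at the cell surface and serves basal uptake. TBC1D1 and TBC1D4 are GTPase-activating proteins that keep the Rab proteins of those vesicles inactive until kinases of the insulin and contraction pathways phosphorylate them, and RAB10 is one such Rab, known best for this role in adipocytes. Hexokinase 2 is the main hexokinase of muscle and hexokinase 1 is the form found in most tissues, while TXNIP is an arrestin-family protein that binds thioredoxin, restrains glucose uptake and is itself induced by glucose.

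The libraries were polyadenylated RNA of skeletal muscle from the classical strains 129, AJ, B6, NOD and NZO and the wild-derived strains Cast, PWK and WSB, 61 in all, with 7 libraries each from NOD, Cast and PWK and 8 from each other strain. Every mouse had been given a high-fat, high-sugar diet labelled as 45 percent fat, no strain was labelled as a control, no other diet was included, and the labels gave neither age nor sex nor which muscle was taken. NZO is known as a model of obesity with diabetes and NOD as a model of autoimmune diabetes. The labels leave unsaid whether each library is its own mouse, and p-values therefore describe the scatter of libraries, which can be technical in part.

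The libraries held between 17057111 and 65153255 counts with a median of 33744449, and the markers of skeletal muscle were high in each of them, their summed level lying between 111472 and 217754 CPM, that is, read counts scaled to a common library total. Library B6_5 stood apart, with 46.3% of its counts in the ribosomal RNA gene Rn18s-rs5 against at most 9.76% in the other 60 libraries, and it received the lowest scaling factor, 0.417. Xist, which is expressed from an inactive X chromosome, lay between 141 and 278 CPM in 31 libraries and between 0.0362 and 30.9 CPM in the other 30, and both kinds occurred in every strain. Libraries Cast_1, Cast_5 and Cast_6 stood apart from the other Cast libraries in several of the genes described here, and differences of Cast that are called are also given without them.

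CPM values were taken on the scaled library size, and a level per kb is that value divided by the kilobases of annotated exon of the gene. A test is called where the adjusted p was under 0.05 in edgeR's quasi-likelihood test with Benjamini-Hochberg adjustment over the 16682 genes, fitted to all 61 libraries at once. Log2 differences are given with their standard error.

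The sequence upstream of Txnip and Slc2a1 is shown because these genes were high together in the same Cast libraries. Both windows run from 250 bases before to 50 bases after the annotated start, as RefSeq gives them on build GRCm38.p6, and 7 of the 8 genes had such an entry, Slc2a4 being the one without. Capitals mark, in Txnip, a paired motif, CACGAG and again CACGAG after 5 bases, which matches the known carbohydrate response element of this gene, and the CCAAT motif on either strand, and, in Slc2a1, CCAAT and TATAAA.
Txnip, chr3:96557707-96558006, plus strand: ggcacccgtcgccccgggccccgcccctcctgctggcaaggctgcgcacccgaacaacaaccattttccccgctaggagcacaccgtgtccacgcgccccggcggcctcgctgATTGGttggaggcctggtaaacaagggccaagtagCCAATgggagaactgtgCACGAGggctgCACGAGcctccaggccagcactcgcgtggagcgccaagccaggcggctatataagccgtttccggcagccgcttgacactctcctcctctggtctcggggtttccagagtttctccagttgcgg
Slc2a1, chr4:119108495-119108794, plus strand: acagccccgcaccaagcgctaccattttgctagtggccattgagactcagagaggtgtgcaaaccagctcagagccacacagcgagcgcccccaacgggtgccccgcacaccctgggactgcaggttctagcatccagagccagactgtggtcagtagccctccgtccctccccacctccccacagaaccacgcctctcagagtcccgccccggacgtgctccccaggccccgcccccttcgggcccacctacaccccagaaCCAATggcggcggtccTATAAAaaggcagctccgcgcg

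The paired motif was spelled after reading the Txnip window, and among 32851 promoter windows, searched on both strands, it occurred in 1, a share of 0.00304%. In Txnip it began 85 bases before the start, and the 2 CCAAT matches began 137 and 102 bases before it. In Slc2a1, CCAAT began 12 bases and TATAAA 28 bases after the annotated start. CCAAT was found in 37.4% and TATAAA in 13.6% of all windows, so these letters are common, and their presence is a description and not a measured binding site.

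Per kb of exon, Txnip had the highest mean level over the 8 strain means at 223 CPM per kb, followed by Slc2a4 at 118, Rab10 at 86.1 and Hk2 at 63.5 CPM per kb. Tbc1d1 averaged 13.5, Tbc1d4 5.8, Slc2a1 2.97 and Hk1 1.42 CPM per kb. The muscle forms exceeded the general ones in every library. Slc2a4 exceeded Slc2a1 per kb with a median ratio of 45.2 over the 61 libraries (16.4 to 77.9), and Hk2 exceeded Hk1 with a median ratio of 43.6 (19.7 to 89).

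Strain differences were unevenly spread over the 8 genes. Slc2a4, Slc2a1, Hk1, Tbc1d1, Tbc1d4 and Rab10, 6 of the 8, differed among the strains in the joint test, against 85.5% of all genes tested, so this count is not above the background. The share of the variance in log2 CPM that lay between strains was 77.7% for Tbc1d4 and 61.2% for Slc2a4, then 43.8% for Tbc1d1, 37.5% for Hk1, 36.8% for Slc2a1, 31.4% for Rab10, 16.1% for Hk2 and 14.1% for Txnip. The median gene stood at 45.4%. Hk2 (F = 1.81, adjusted p = 0.117) and Txnip (F = 2.06, adjusted p = 0.0729) did not pass the joint test, although DESeq2's joint test called Txnip (adjusted p = 0.0401).

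**Figure D1:**
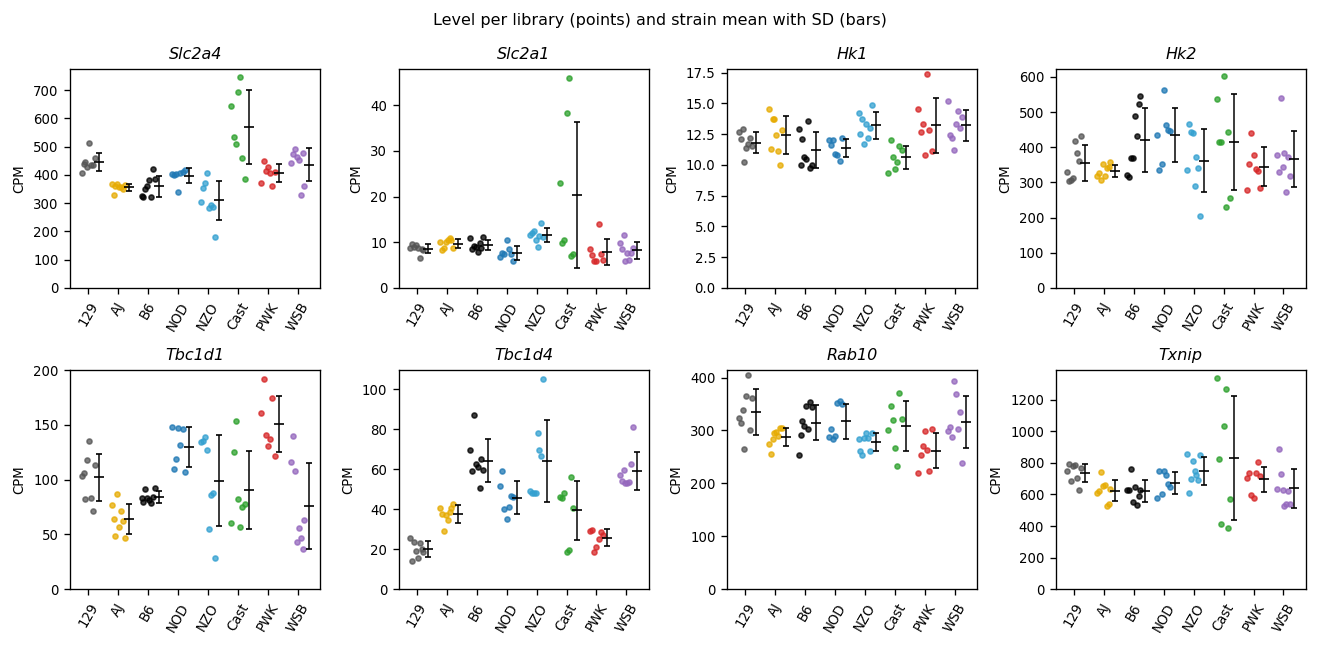
Level of each of the 8 genes (CPM, linear axis from 0) in every library, one point per library, by strain on the horizontal axis, with the strain mean and SD as a black bar. The reader should see the low Tbc1d4 points of 129 and PWK, the low Slc2a4 of NZO, and the few Cast libraries that lie far above all others in Slc2a4, Slc2a1 and Txnip.

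Slc2a4, the muscle and fat transporter gene (chr11:69942539-69948188, minus strand, GRCm38), was highest in Cast and lowest in NZO. Its lowest, median and highest library stood at 384, 535 and 747 CPM in Cast, and at 180.3, 298 and 408 CPM in NZO. In the strains between, the medians were 436 CPM in 129, 458 in WSB, 411 in PWK, 404 in NOD, 359 in AJ and 356 in B6. Cast and NZO overlapped only between 384 and 408 CPM, and 5 of the 8 NZO libraries were under the lowest of any other strain while 4 of the 7 Cast libraries exceeded the highest.

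Relative to the mean of the other 7 strains, Slc2a4 was higher in Cast by 0.56 ± 0.08 on the log2 scale (568 ± 131 CPM in Cast, SD, n = 7, against 387 ± 48.3 CPM, the mean and SD of the other 7 strain means; adjusted p = 7.26e-09). That difference was 0.30 ± 0.09 (adjusted p = 0.00572) without Cast_1, Cast_5 and Cast_6. Slc2a4 was lower in NZO, with a difference of -0.44 ± 0.08 (309.7 ± 69.8 CPM, SD, n = 8, against 424 ± 72.1 CPM; adjusted p = 1.67e-05). AJ was lower by a smaller amount, -0.21 ± 0.08 (356 ± 12.9 CPM, SD, n = 8, against 417 ± 81 CPM; adjusted p = 0.0354), a call that was lost without any one of AJ_2, AJ_3, AJ_5, AJ_6, AJ_7 or AJ_8, with adjusted p between 0.0504 and 0.0773. In the order of strain means, Cast, 129, WSB, PWK, NOD, B6, AJ and NZO, the step from Cast to 129 was the one neighbouring pair that differed (0.35 ± 0.10, adjusted p = 0.00342). Of the 28 strain pairs, 15 differed for Slc2a4, where the average over all genes and pairs was 33.5% and single pairs ranged from 12.6% to 59.3% of genes.

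Slc2a4 was also the one member called between the wild-derived and the classical strains, where 58.7% of all genes were called. Its strain means averaged 470.0 ± 86 CPM over the 3 wild-derived strains and 373 ± 50.7 CPM over the 5 classical strains, SD over strain means (log2 difference 0.33 ± 0.05, adjusted p = 5.18e-07). The test takes its error from libraries and not from strains, and the order above interleaves both kinds, since 129 stood second. Without Cast_1, Cast_5 and Cast_6 the difference was 0.24 ± 0.05 (adjusted p = 7.70e-05).

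The NZO libraries were themselves uneven in Slc2a4. Library NZO_8 had 180.3 CPM, the lowest Slc2a4 of all 61, and it was also the lowest of all in Hk2 at 205 CPM and Tbc1d1 at 28.4 CPM and the highest of all in Tbc1d4 at 105 CPM. Its macrophage markers summed to 157 CPM, the highest of all 61, against 56.7 to 80.4 CPM in the other NZO libraries. Its lymphocyte markers summed to 14.6 CPM, the highest in NZO. Leaving out single libraries kept the NZO difference of Slc2a4 between -0.50 and -0.35, with adjusted p of at most 1.56e-04. Among 8 slow-fibre markers 7 were called higher in NZO, their summed level lying between 2698 and 10125 CPM in NZO against 989 to 4984 CPM in the libraries of the other strains. Of the other cell types, 5 of 6 endothelium markers were called higher in NZO, summing to between 242 and 286 CPM in NZO against 160.4 to 278 CPM in the other strains. All 5 keratinocyte markers tested were called lower, summing to between 0.755 and 9.75 CPM in NZO against 1.61 to 346 CPM, and 27.3% of all genes were called in NZO. The part of these markers in the Slc2a4 difference was not tested beyond fits with marker levels as covariates. With fibre marker levels no call in NZO changed. With adipocyte, hepatocyte, lymphocyte and keratinocyte marker levels the Slc2a4 call in NZO was kept. Macrophage and endothelium markers entered neither fit. In whole muscle, fewer cells of a type and less RNA per cell cannot be told apart.

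Slc2a1, the basal transporter gene (chr4:119108711-119137983, plus strand), was a low-level gene with between 76 and 1379 counts per library. In Cast its lowest, median and highest libraries had 6.94, 10.6 and 45.9 CPM, while the libraries of the other 7 strains lay between 5.8 and 14.2 CPM. The Cast mean of 20.3 ± 16 CPM (SD, n = 7) set against 9.02 ± 1.34 CPM in the other 7 strains gave a log2 difference of 1.18 ± 0.16 (adjusted p = 8.91e-09). It rested on Cast_1 at 23 CPM, Cast_5 at 38.4 CPM and Cast_6 at 45.9 CPM, since the other 4 Cast libraries at 9.89, 10.6, 6.94 and 7.5 CPM lay inside the range of the other strains. Without those 3 libraries the difference was -0.04 ± 0.14 (adjusted p = 0.847).

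Among the other strains, NZO had the highest Slc2a1, with 9.06, 11.5 and 14.2 CPM as its lowest, median and highest libraries. NOD had the lowest mean at 7.73 ± 1.5 CPM (SD, n = 7), beside PWK at 7.86 ± 2.93 CPM (SD, n = 7), and the test did not separate these 2 strains (0.02 ± 0.24 for PWK over NOD, adjusted p = 0.954). The NZO difference from the other 7 strains was not called with all libraries (0.25 on the log2 scale, adjusted p = 0.279). It was called without the 3 Cast libraries (0.43 ± 0.10, adjusted p = 4.42e-04). Those libraries were picked in part by their high Slc2a1, which enters the mean that NZO is set against, so this call partly follows from that choice. In NZO the more abundant transporter gene Slc2a4 was thus low while Slc2a1 was among the higher values, and the ratio of Slc2a4 to Slc2a1 per kb had a median of 27.7 in NZO (16.4 to 39.4), against medians between 36.9 and 62.8 in the other strains. The ratio was not tested. Of the 28 strain pairs, 7 differed for Slc2a1, each of them involving Cast, and without Cast_1, Cast_5 and Cast_6 the count was 5, of which 1 involved Cast.

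Tbc1d4, the Rab regulator downstream of insulin (chr14:101442360-101609191, minus strand), varied most among the strains of the 8 genes, over 3.21-fold between the highest and the lowest strain mean. Its lowest, median and highest libraries had 14, 19.7 and 25.6 CPM in 129 and 18.6, 26.9 and 29.8 CPM in PWK. They had 50.7, 61.8 and 86.9 CPM in B6, 48, 58 and 105 CPM in NZO, and 52.9, 55.6 and 81.3 CPM in WSB. No library of 129 or PWK reached the lowest library of B6, NZO, WSB or NOD, so these groups were fully separate.

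Tbc1d4 was lower in 129 than in the mean of the other 7 strains by a log2 difference of -1.20 ± 0.14 (20.0 ± 3.93 CPM, SD, n = 8, against 48 ± 15 CPM; adjusted p = 2.94e-10), and lower in PWK by -0.79 ± 0.14 (25.6 ± 4.25 CPM, SD, n = 7, against 47.2 ± 16.4 CPM; adjusted p = 4.31e-06). It was higher in B6 (0.73 ± 0.12, adjusted p = 1.20e-06), in NZO (0.73 ± 0.12, adjusted p = 1.29e-06) and in WSB (0.59 ± 0.12, adjusted p = 3.83e-05). The NZO libraries were split, with 48 to 49.3 CPM in the 4 high in Xist and 66.7 to 105 CPM in the other 4. All 5 differences kept their direction and their call under the 11 other settings and each omission of 1 library. Cast at 39.4 ± 14.6 CPM (SD, n = 7), AJ at 37.6 ± 4.31 CPM (SD, n = 8) and NOD at 45.8 ± 8.02 CPM (SD, n = 7) lay between, with medians of 45.8, 38.3 and 46 CPM.

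The order of Tbc1d4 means was B6, NZO, WSB, NOD, Cast, AJ, PWK and 129. Of its 28 strain pairs, 20 differed. Among neighbours, AJ and PWK differed (0.56 ± 0.17, adjusted p = 0.00652), and the other 6 steps did not pass. B6 and 129, the ends of the order, differed by 1.68 ± 0.17 (adjusted p = 3.87e-12).

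Tbc1d1, the related regulator best known for its role in contraction and AMPK signalling (chr5:64156305-64351486, plus strand), followed another order: PWK, NOD, 129, NZO, Cast, B6, WSB and AJ. The lowest, median and highest libraries had 122, 141 and 192 CPM in PWK and 107, 132 and 148 CPM in NOD. They had 47.1, 63.2 and 87.3 CPM in AJ. PWK and NOD libraries all lay above all AJ libraries, while no neighbouring pair in the order was called by edgeR, DESeq2 or limma, nor had an unadjusted p under 0.05, in a count of 0 of 7.

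Relative to the mean of the other 7 strains, Tbc1d1 was higher in PWK (0.74 ± 0.17; 151 ± 25.5 CPM, SD, n = 7, against 92.2 ± 21.1 CPM; adjusted p = 2.52e-04) and in NOD (0.50 ± 0.17; 130.0 ± 18 CPM, SD, n = 7, against 95.3 ± 27.8 CPM; adjusted p = 0.0317). It was lower in AJ (-0.67 ± 0.18; 64.3 ± 13.9 CPM, SD, n = 8, against 105 ± 26.7 CPM; adjusted p = 0.003). The NOD call was lost without NOD_1, NOD_4 or NOD_7, with adjusted p up to 0.0736, and with the summed levels of adipocyte, hepatocyte, lymphocyte and keratinocyte markers as covariates (adjusted p = 0.0606). Of the 28 strain pairs, 10 differed for Tbc1d1.

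Within strains, Tbc1d1 was the most variable of the 8 genes in WSB and NZO. Its libraries spanned 36.5 to 140.0 CPM in WSB and 28.4 to 139 CPM in NZO, a 3.83-fold and a 4.88-fold range. In B6, by contrast, they spanned 78.3 to 92.1 CPM.

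In PWK, Tbc1d1 was thus called higher and Tbc1d4 lower than in the other strains. The ratio of Tbc1d1 to Tbc1d4 per kb had medians of 6.29 in PWK (4.69 to 7.88) and 5.22 in 129 (3.68 to 8.87). It had medians of 3.07 in NOD, 2.82 in Cast, 2.04 in NZO, 1.74 in AJ, 1.38 in B6 and 1 in WSB. Every PWK and 129 library lay above every AJ, B6, NZO and WSB library in this ratio, for which no test was made.

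**Figure D2:**
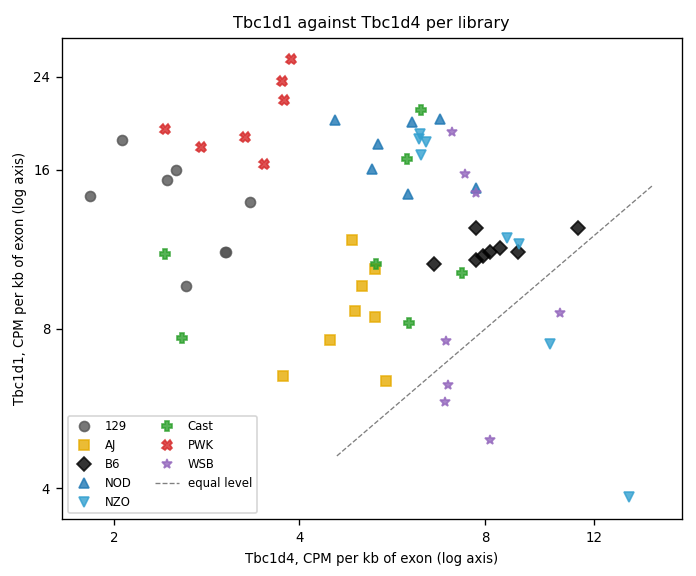
Level of Tbc1d1 (vertical) against Tbc1d4 (horizontal) in every library, both in CPM per kb of exon on log axes, with a symbol and colour per strain and a dashed line where both levels are equal. PWK and 129 lie at the upper left and B6 lies close to the line, while the NZO and WSB libraries spread from well above the line to below it, down to a ratio of 0.28 in NZO.

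Rab10, the small GTPase gene (chr12:3247430-3309969, minus strand), varied little, 1.28-fold between the highest strain mean, 129, and the lowest, PWK. Its lowest, median and highest libraries had 265, 331 and 405 CPM in 129 and 219, 263 and 302 CPM in PWK, and these 2 strains overlapped. Rab10 was lower in PWK (-0.23 ± 0.07; 262 ± 33 CPM, SD, n = 7, against 308 ± 19.2 CPM; adjusted p = 0.0048). In 129 it was called higher (0.17 ± 0.06; 335 ± 43.3 CPM, SD, n = 8, against 298 ± 22.1 CPM; adjusted p = 0.0377), a call lost without 129_3, 129_6, 129_7 or 129_9, with the same marker covariates (0.08, adjusted p = 0.49), and with the GT20 number of the library titles as covariate (0.16, adjusted p = 0.0571). In the other strains the Rab10 medians lay between 285 CPM in NZO and 319 CPM in Cast. Of the 28 strain pairs, 6 differed, and of the 7 neighbouring pairs 0 were called with edgeR, DESeq2 or limma, and 0 had an unadjusted p under 0.05.

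The hexokinase genes showed small differences between strains. Hk1 (chr10:62268855-62379908, minus strand), the general form, had strain medians between 10.6 CPM in B6 and Cast and 13.2 CPM in NZO and WSB, and the libraries of all strains overlapped. It was lower in Cast (-0.21 ± 0.06; 10.6 ± 0.969 CPM, SD, n = 7, against 12.4 ± 0.886 CPM; adjusted p = 0.00372), though not without Cast_1, Cast_5 and Cast_6 (-0.12 ± 0.08, adjusted p = 0.214). It was called higher in WSB (0.14 ± 0.06; 13.2 ± 1.29 CPM, SD, n = 8, against 12 ± 0.996 CPM; adjusted p = 0.0443), a call close to the threshold that ended under 5 of 11 other settings, and in 19 of the 61 omissions of 1 library. Of the 28 strain pairs, 9 differed for Hk1.

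Hk2, the main muscle hexokinase gene (chr6:82725025-82774454, minus strand), ranged over 1.31-fold between the highest and the lowest strain mean. The lowest, median and highest libraries had 335, 446 and 564 CPM in NOD and 308, 334 and 357 CPM in AJ, the ends of the order. Within Cast alone the range was 229 to 603 CPM, and within NZO 205 to 467 CPM, so the strains overlapped widely. None of the 28 strain pairs and none of the 8 single-strain differences was called for Hk2 with edgeR, and 4 pairs and 1 strain had an unadjusted p under 0.05. DESeq2 and limma called none either, and the widest difference from the other strains was 0.24 on the log2 scale, in NOD. Without Cast_6, which had 229 CPM, the joint test passed (adjusted p = 0.0345), and without Cast_8, which had 255 CPM, it passed at 0.048.

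Txnip, the arrestin-family brake on glucose uptake (chr3:96557957-96561883, plus strand), was the most abundant of the 8 genes and had libraries between 527 and 890.4 CPM in the 7 strains other than Cast. Cast spanned that whole range and beyond, with 389.9, 822 and 1341 CPM as its lowest, median and highest libraries. Cast_1 at 1341 CPM, Cast_6 at 1268 CPM and Cast_5 at 1032 CPM exceeded the highest library of any other strain, while Cast_7 at 389.9 CPM and Cast_3 at 411 CPM were under the lowest.

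The Cast mean of Txnip was called higher than the other 7 strains (0.31 ± 0.11; 834 ± 393 CPM, SD, n = 7, against 677 ± 52.6 CPM; adjusted p = 0.0166). Without Cast_1, Cast_5 and Cast_6 the sign turned, to -0.30 ± 0.11 (adjusted p = 0.0249), and the joint test over strains passed (adjusted p = 0.0119). With the marker covariates the Cast difference was -0.01 (adjusted p = 0.96), and limma on the authors' variance-stabilised values gave 0.18 (adjusted p = 0.196). The call was also lost without Cast_1 alone (0.15, adjusted p = 0.258), without Cast_5 (adjusted p = 0.0747) and without Cast_6 (adjusted p = 0.197). The joint test, in turn, passed without WSB_3 (adjusted p = 0.0344), Cast_3 (0.00569), Cast_7 (0.004) or Cast_8 (0.0286). Of the 28 strain pairs, 3 differed for Txnip with edgeR and none with limma on the variance-stabilised values, where none had an unadjusted p under 0.05 either.

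**Figure D3:**
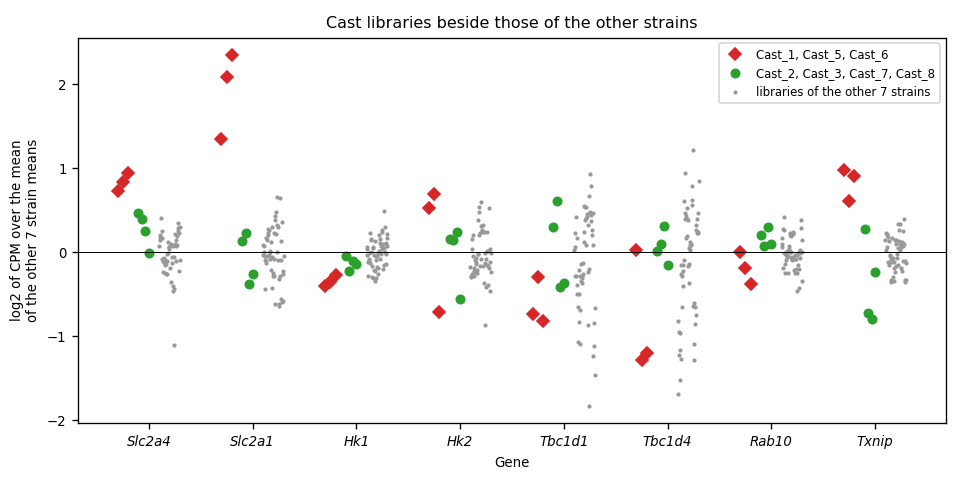
Level of each gene in every Cast library, as log2 of its CPM over the mean of the other 7 strain means (vertical axis), with Cast_1, Cast_5 and Cast_6 as red diamonds, the other Cast libraries as green circles and the libraries of the other 7 strains as grey points. The red diamonds lie above all grey points in Slc2a4, Slc2a1 and Txnip, and among the green circles 2 Txnip values lie below them.

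The Cast libraries set apart above were picked from the values of Slc2a4, Slc2a1 and Txnip themselves. The differences and calls without them, in Cast and in the other strains, are therefore partly fixed by that choice. Tbc1d4 was at 18.6 CPM in Cast_5 and 19.8 CPM in Cast_6, against 40.8 to 56.3 CPM in the other 5 Cast libraries, Cast_1 being at 46.2 CPM. Hk2 did not move with them, at 537, 603 and 229 CPM in Cast_1, Cast_5 and Cast_6. Of the 3, Cast_1 belonged to the libraries high in Xist and the other 2 did not.

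Other genes of the pathway, from lists chosen with earlier results of these data known, showed the same libraries apart. Klf15, a transcription factor gene known to raise Slc2a4 expression, had 234, 115 and 309 CPM in Cast_1, Cast_5 and Cast_6, between 30.2 and 86.4 CPM in the other Cast libraries, and at most 54.1 CPM in any library of the other strains. Arrdc3, an arrestin-family relative of Txnip, had 504, 564 and 877 CPM in those 3 libraries, against 62.5 to 223 CPM in the other Cast libraries and at most 133 CPM in the other strains. Mef2c, a gene of the MEF2 family of muscle transcription factors, which bind the Slc2a4 promoter, was low in them at 174, 86.2 and 64.3 CPM, against 303 to 359 CPM in the other Cast libraries and at least 285 CPM in the other strains.

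Markers of other cells also differed in Cast. The 6 nerve and Schwann cell markers, of which 3 were called lower and 1 higher in Cast, summed to 47.9, 34.3 and 37.8 CPM in Cast_1, Cast_5 and Cast_6, against 68.6 to 116 CPM in the other Cast libraries. All 4 brown adipocyte markers were called higher in Cast, summing to between 143 and 309 CPM there. In WSB 3 of these 4 were called higher too, with sums of 118 to 536 CPM. Of 6 erythrocyte markers tested 4 were called lower in Cast. Of all genes, 61.8% were called in Cast. The 8 adipocyte markers, of which 4 were called higher and 1 lower in Cast, summed to 2207, 1128 and 1627 CPM, against 747 to 1586 CPM. Of 6 endothelium markers 5 were called lower in Cast, summing to between 160.4 and 184 CPM over all Cast libraries against 198 to 286 CPM in the other strains. The 7 hepatocyte markers summed to 3597, 309 and 94.9 CPM in Cast_1, Cast_5 and Cast_6, against 39.6 to 6052 CPM in the other Cast libraries. The part of these markers in the Cast differences was not tested beyond the fit with adipocyte, hepatocyte, lymphocyte and keratinocyte marker levels as covariates.

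**Figure D4:**
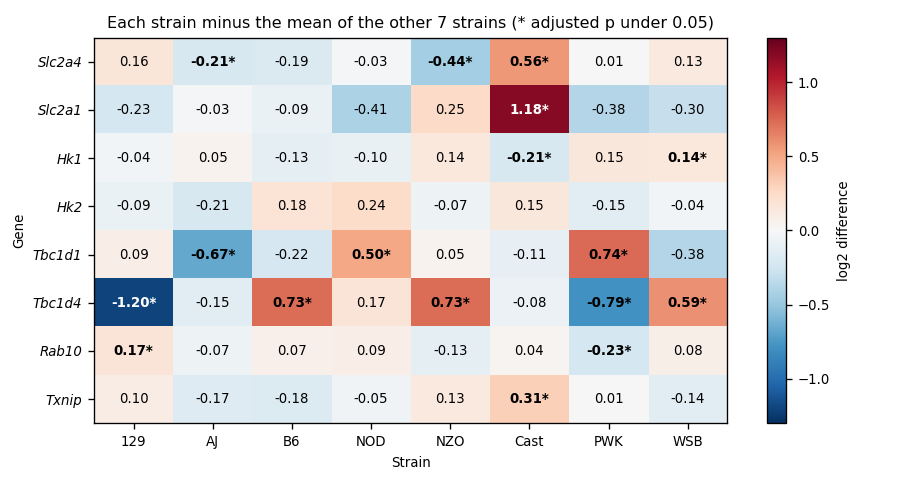
Log2 difference of each strain (columns) from the mean of the other 7 strains for the 8 genes (rows), as a colour and a printed value, with an asterisk and bold type where the adjusted p was under 0.05. Tbc1d4 carries 5 called strains, from -1.20 in 129 to 0.73 in B6 and NZO, Slc2a4 and Tbc1d1 carry 3 each, and Hk2 carries none.

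Counted by strain, 2 of the 8 genes were called in 129 (25.6% of all genes), 2 in AJ (31.7%), 1 in B6 (26.2%), 1 in NOD (21.6%), 2 in NZO (27.3%), 4 in Cast (61.8%), 3 in PWK (41%) and 2 in WSB (38.3%). Each count is near what the background share would give for 8 genes. Without Cast_1, Cast_5 and Cast_6, 2 genes were called in Cast, Slc2a4 and Txnip, and 5 in NZO, where Slc2a1, Txnip and Rab10 joined Slc2a4 and Tbc1d4. These counts partly follow from the choice of libraries, which was made on Slc2a4, Slc2a1 and Txnip. The strain contrasts share libraries, since each strain is part of the mean that the others are set against.

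The levels also varied with Xist within strains. The labels give no sex, and the level of 100 CPM that separates the libraries was set after their values were seen. Ddx3y, a gene of the Y chromosome, split the libraries in the same way. It lay between 0 and 2.77 CPM in the 31 libraries high in Xist and between 66.8 and 200.3 CPM in the other 30. With strain in the fit, Tbc1d1 rose by 0.057 ± 0.015 on the log2 scale per log2 unit of Xist (adjusted p = 0.00503) and Rab10 changed by -0.020 ± 0.006 (adjusted p = 0.00889). The other 6 genes were not called, and 14.5% of all genes were. Xist entered this fit as a continuous level, although its values lay on either side of a wide gap. Scatter among the libraries low in Xist therefore also enters the slope, which is no measured dose response. A test of the libraries over 100 CPM against the others was not made.

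In NZO, Tbc1d1 had 127 to 139 CPM in the 4 libraries high in Xist, against 28.4 to 87.8 CPM in the other 4. In WSB it had 63.6 to 140.0 CPM in the high ones, against 36.5 to 56.3 CPM in the others, again without overlap, whereas in B6 the ranges of 79.9 to 91.5 CPM and 78.3 to 92.1 CPM coincided. Tbc1d4 in NZO ran the other way, at 48 to 49.3 CPM in the libraries high in Xist, against 66.7 to 105 CPM in the others, and it overlapped in the other 7 strains.

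Slc2a4 in NZO had 304 to 408 CPM in the libraries high in Xist, against 180.3 to 292 CPM in the others, while in NOD it had 339 to 404 CPM against 407 to 416 CPM, the opposite direction. Hk2 was separate in B6, at 314 to 368 CPM against 432 to 546 CPM, and in 129, at 304 to 329.8 CPM against 361 to 432 CPM, low in the libraries high in Xist in both. Rab10 was separate in NOD, at 283 to 303 CPM against 350.0 to 356 CPM, and in PWK, at 219 to 263 CPM against 271 to 302 CPM. Slc2a1 was higher in the libraries high in Xist in 129, at 8.81 to 9.54 CPM against 6.65 to 8.72 CPM, in PWK, at 7.21 to 14.1 CPM against 5.8 to 6.1 CPM, and in WSB, at 8.44 to 11.6 CPM against 5.98 to 7.69 CPM. In all, 12 of the 64 combinations of gene and strain did not overlap, a share of 18.8%, against 11.5% of the combinations over all genes tested, and whether the Xist difference itself varied between strains was not tested.

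**Figure D5:**
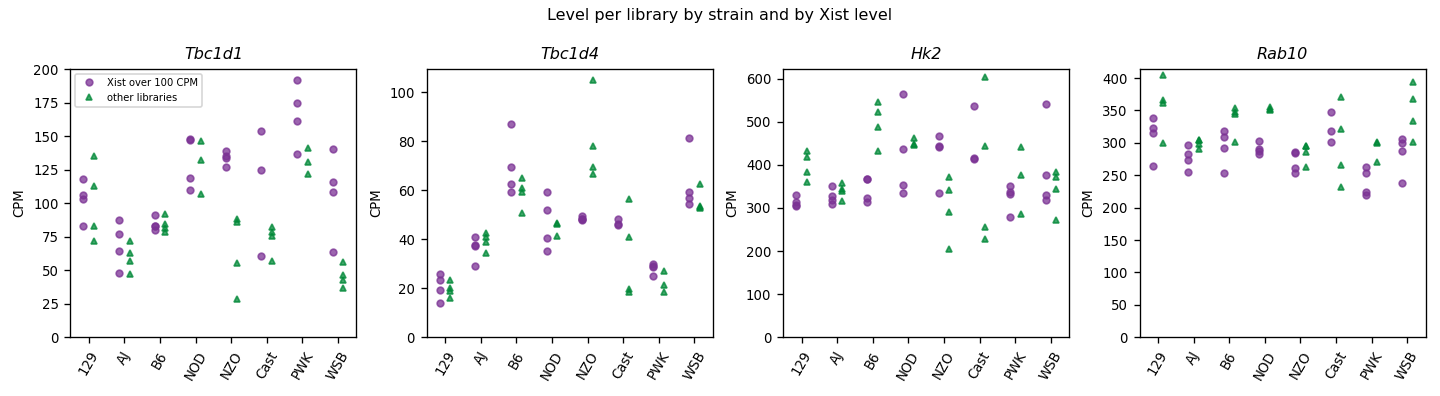
Level (CPM, linear axis from 0) of Tbc1d1, Tbc1d4, Hk2 and Rab10 in every library by strain, with libraries over 100 CPM of Xist as purple circles on the left and those at most at 30.9 CPM as green triangles on the right of each strain. The Tbc1d1 circles of NZO and WSB lie above their triangles, and the Tbc1d4 triangles of NZO lie above its circles.

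Around these 8 genes, 60 other genes of glucose transport, GLUT4 traffic, hexokinase binding, Txnip relatives and Slc2a4 regulation could be tested, and 56 of them differed among the strains (93.3%, against 85.5% of all genes). Of the 9 other glucose transporter genes 8 differed, the widest being Slc2a3, a high-affinity transporter gene known from neurons and blood cells, which averaged 13.2 ± 9.98 CPM in 129 (SD, n = 8) but only 0.731 ± 0.522 CPM in PWK (SD, n = 7). Slc2a12, a further transporter gene of muscle and heart, was higher in Cast (0.31 ± 0.07, adjusted p = 8.51e-05) and lower in NZO (-0.51 ± 0.07, adjusted p = 1.90e-08) and PWK (-0.21 ± 0.07, adjusted p = 0.0137). Within Cast it had 12.7, 13.3 and 15.4 CPM in Cast_1, Cast_5 and Cast_6, under the 17.3 to 21.1 CPM of the other Cast libraries, and without those 3 the Cast difference was 0.50 ± 0.07 (adjusted p = 7.91e-08). Slc2a2, the liver and beta cell form, did not pass the joint test (adjusted p = 0.347).

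In the list of GLUT4 vesicle cargo, tethering and fusion genes 12 of 13 differed. Aspscr1 (TUG), which encodes the tether that retains GLUT4 vesicles, was higher in Cast (1.05 ± 0.07, adjusted p = 9.01e-19) and lower in NZO (-0.33 ± 0.08, adjusted p = 8.27e-04). It had 29.3, 43.4 and 45.9 CPM in Cast_1, Cast_5 and Cast_6 and 21 to 25.3 CPM in the other Cast libraries, all above the 20.5 CPM that no library of another strain exceeded. Without the 3 libraries the Cast difference of Aspscr1 was 0.66 ± 0.06 (adjusted p = 4.06e-13). Stx4a, the plasma membrane SNARE gene for GLUT4 vesicles, was lower in Cast (-0.52 ± 0.07, adjusted p = 2.24e-09), and Myo5a, a vesicle motor gene, was higher in Cast (0.84 ± 0.12, adjusted p = 1.37e-08) and lower in B6 (-0.86 ± 0.13, adjusted p = 4.71e-07). Without the 3 libraries, Stx4a differed by -0.29 ± 0.06 (adjusted p = 8.93e-05) and Myo5a by 0.35 ± 0.14 (adjusted p = 0.0329) in Cast.

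All 15 small GTPases of GLUT4 traffic and their regulators differed among the strains. Rala, a GTPase gene of vesicle tethering, was lower in Cast (-0.61 ± 0.07, adjusted p = 3.33e-11) and higher in PWK (0.31 ± 0.06, adjusted p = 4.90e-05). Ralgapa1, which encodes a subunit of the Ral inhibitor, was lower in Cast too (-0.42 ± 0.07, adjusted p = 1.82e-06), and so was Rabif (-0.43 ± 0.07, adjusted p = 1.40e-06), a chaperone gene known to stabilise RAB10. In the fit without Cast_1, Cast_5 and Cast_6, these 3 differences were -0.38 ± 0.07 for Rala (adjusted p = 3.44e-06), -0.23 ± 0.07 for Ralgapa1 (adjusted p = 0.0101) and -0.25 ± 0.08 for Rabif (adjusted p = 0.0132).

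Among the other hexokinases and their partners 5 of 6 differed. Vdac1, which encodes the mitochondrial outer membrane channel that binds hexokinase, was lower in Cast (-0.36 ± 0.05, adjusted p = 1.75e-08), while the related Vdac2 was higher there (0.24 ± 0.05, adjusted p = 1.30e-05). Both calls held without the 3 Cast libraries, at -0.34 ± 0.07 for Vdac1 (adjusted p = 2.91e-05) and 0.16 ± 0.06 for Vdac2 (adjusted p = 0.0259).

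Among Txnip partners, relatives and regulators 8 of 9 differed, and 6 were called higher in Cast and 2 lower, where 61.8% of all genes were called in Cast. Arrdc4, a relative of Txnip that also restrains glucose uptake, was higher in PWK, at 20.3 ± 3 CPM (SD, n = 7; 1.07 ± 0.09, adjusted p = 3.43e-16), and lowest in Cast at 7.25 ± 1.81 CPM (SD, n = 7), unlike Arrdc2 (1.77 ± 0.27, adjusted p = 1.58e-07) and Arrdc3 (2.43 ± 0.21, adjusted p = 2.85e-15), which were higher in Cast. Without Cast_1, Cast_5 and Cast_6 the Cast differences were 1.22 ± 0.36 for Arrdc2 (adjusted p = 0.00521), 0.91 ± 0.22 for Arrdc3 (adjusted p = 7.98e-04) and -0.50 ± 0.13 for Arrdc4 (adjusted p = 8.33e-04). Mlxipl, which encodes the glucose-sensing factor ChREBP, did not pass the joint test (adjusted p = 0.34). All 8 regulators of Slc2a4 transcription differed, with Klf15 higher in Cast (2.08 ± 0.17, adjusted p = 9.50e-16) and lower in NZO (-0.86 ± 0.21, adjusted p = 0.00118). Without the 3 Cast libraries, Klf15 differed by 0.87 ± 0.17 in Cast (adjusted p = 2.54e-05) and Mef2c by -0.35 ± 0.09 (adjusted p = 0.0016), against -0.84 for Mef2c with all libraries.

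For each of the 8 genes, the 3 genes whose profile over the 8 strain means lay closest were found among 8898 genes, by the root mean square difference of centred log2 levels. Slc2a4 was most like Ubac2 (0.0671), Prdx1 (0.0729) and Slc25a32 (0.0809), and Slc2a1 most like the clock gene Cry2 (0.0827), then Arid5a and Pi4k2a. The strain means include Cast_1, Cast_5 and Cast_6, on which the Cast peak of Slc2a1 rested. Tbc1d4 had no close match, its nearest genes Entpd4, Ttll12 and Gbp2 differing by 0.297 or more, and for Tbc1d1 the nearest were Vtn (0.183), Mtss1l and Pdlim3. The genes nearest to Hk1 were Myh9, Snx27 and Ywhaq, to Hk2 Rnf187, Cops8 and Gars, to Rab10 Ube2b, Tceb2 and Parp6, and to Txnip Zc3h13, Trim3 and Nat10, at 0.0317 to 0.0655, where small differences also follow from the narrow ranges of these genes. Of the genes named here as nearest, Vtn (adjusted p = 0.336) and Myh9 (adjusted p = 0.0942) did not pass the joint test over strains.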

How the data were processed

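Polyadenylated RNA of skeletal muscle was measured in 61 libraries, each assigned to its strain by its title. The authors deposited a table of estimated counts (80.4% of the values were whole numbers, and the rest were rounded here to whole numbers before testing), a table of variance-stabilised log2 values between 5.87 and 25.11, and gene positions on GRCm38, per the file headers. Per the submitters' processing notes, the build was GRCm38 and DESeq2 was used. No aligner, counting tool or use of strand is named in the sources used here, so reads of Txnip and of the antisense gene Gm15441, with which it shares 606 exon bases, cannot be told apart by strand, nor can those of Rab10 and Rab10os, Hk1 and Hk1os, Slc2a1 and Gm12868, Slc2a12 and Tbpl1, or Aspscr1 and Gm17178. Differences in mapping between strains, the wild-derived ones included, were not tested.

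Counts were filtered with filterByExpr, scaled by TMM and fitted with edgeR 4.0.16 in R 4.3.3, with strain as the only factor, 53 residual degrees of freedom and a threshold of 0.05 on the Benjamini-Hochberg adjusted p over 16682 genes. Contrasts were each strain against the mean of the other 7, wild-derived against classical strains, and the 28 strain pairs. The scripts were tested on simulated data. Exon lengths came from GENCODE M21 and near-identical copies from BLAST 2.17.0. For 23 genes the symbol was not the same in the count table and the variance-stabilised table, and that of the latter was used. Alternatives used DESeq2 1.42.0 and limma 3.58.1, other scaling and filters, covariates, and the omission of each library. The members and the lists were chosen with earlier results of these data known. From each list of other pathway genes, up to 3 that passed the joint test with the widest range over strains and at least 5 CPM were named, except 1 that is not reported here, and pathway genes named beyond those are the ones that missed the joint test, chosen after their values were seen. The alternative without Cast_1, Cast_5 and Cast_6 and the Xist level were chosen after seeing the data. Deviations from the strain mean had a median correlation of 0.011 over 186 pairs of libraries with the same number in different strains. For pairs with other numbers the median was 0 over 1441 pairs. A median near 0 cannot show whether the numbers pair samples. The depth of 17057111 to 65153255 counts left at least 76 counts for each of the 8 genes in each library.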

Additional observations from a re-analysis of the deposited data

Results flagged for a closer look

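In 6 of the 64 groups of gene and strain 1 library lay far from the others of its strain by Dixon's test, where chance flags about 1 in 20 groups. Slc2a4 was low in AJ_2 at 328 CPM, in NOD_4 at 339 CPM and in NZO_8 at 180.3 CPM. Slc2a1 was low in 129_7 at 6.65 CPM and high in PWK_6 at 14.1 CPM. Tbc1d4 was high in WSB_9 at 81.3 CPM, against 52.9 CPM in the lowest WSB library. The NZO difference of Slc2a4 and the WSB difference of Tbc1d4 kept their calls without these libraries, and that of Slc2a4 in AJ did not without AJ_2.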

How the results depend on the processing

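Of 2440 single-gene values under other settings, 2351 kept direction and side of the threshold, 47 lost a call, 20 gained one and 22 turned sign. The joint count of 6 and the 17 single-strain calls stayed within 1.5 times under each setting run. Without Cast_1, Cast_5 and Cast_6, calls changed to 2 between wild-derived and classical strains, 3 in 129, 1 in AJ, 5 in NZO, 2 in Cast and 3 in WSB, where Slc2a4 (adjusted p = 0.039) and Tbc1d1 (0.0459) were gained and Hk1 (0.0619) lost, Slc2a4 being the gain in 129 (0.0186), and the differences turned to -0.04 for Slc2a1 and -0.30 for Txnip in Cast, and to -0.17 for Slc2a1 and -0.12 for Txnip in the wild-derived contrast. That contrast held 1 call and gave 2 without 129, NZO or PWK, 3 without Cast and 5 without WSB. In it the sign turned for Slc2a1 (-0.21) and Txnip (-0.03) without Cast, Hk1 without PWK (-0.01) or WSB (-0.02), Hk2 without B6 (0.01), NOD (0.02) or PWK (0.05), Tbc1d1 without AJ (-0.02) or PWK (-0.16), Tbc1d4 without B6 (0.01), NZO (0.01) or PWK (0.18), and Rab10 without PWK (0.04). With other-cell-type markers as covariates, calls were 1 in 129, 2 in B6 and 0 in NOD, and the sign turned for Hk2 (0.04) and Rab10 (0.03) in the wild-derived contrast and Txnip in Cast (-0.01). The GT20 number as covariate gave 1 call in 129 and 2 in B6, DESeq2 gave 2 in B6, and both no filter and fibre covariates gave 1 in WSB. Leaving out single libraries gave 1 to 2 calls in the wild-derived contrast, in 129, in AJ and in B6, 0 to 1 in NOD and 1 to 3 in WSB, and moved Hk2 in the wild-derived contrast between -0.06 and 0.01, the positive value coming without Cast_6 or Cast_8. The cause of these changes was not tested. The replicate block gave 6 joint calls, 18 single-strain calls and 72 of 224 strain pairs, against 70 without it, and whether the numbers pair samples is not known. No scaling moved the median of all genes by over 0.1. Adding the copy of Txnip changed no call.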
